A study of Mus musculus with 9 samples.

Results

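Myeloperoxidase (Mpo) and 9 further genes of granulocyte granules and cytosol were followed in maps of H3K27me3, the trimethylated form of lysine 27 on histone H3, in mouse blood progenitors. The 10 genes were taken by name (Mpo, Lpo, Epx, Elane, Prtn3, Ctsg, Ltf, Camp, Ngp and S100a8), out of 21883 protein-coding genes of the build mm10, and each was read as its gene span with 5 kb added on either side, called its window here. Mpo had been chosen by its interval calls, which under vehicle were present on its span in both wild-type libraries and absent in both mutant ones, so its values in that comparison are given as a description and were not tested. All 10 genes were found in the gene table.

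The cells were bone marrow progenitors enriched on magnetic beads as Lin- c-Kit+, never cultured, from female C57BL/6 mice that had undergone transplantation. In the wild-type groups (WT) the mice were Dnmt3a+/+, and in the mutant groups (RH) they carried Dnmt3afl-R878H/+, an allele of the DNA methyltransferase gene Dnmt3a that is recombined by Cre. All groups carried the Mx1-cre transgene, in which an interferon-inducible promoter drives Cre. Each genotype received vehicle (VEH) or metformin (MET) for 1 month, which gave 4 groups with 2 libraries each. One input library was also sequenced and was not used here. Nothing says that libraries of a group came from separate mice, and the share of recombined or donor-derived cells is not given in the sources used here. The series title asks whether metformin lowers the competitive advantage of R878H cells.

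H3K27me3 is written by Polycomb repressive complex 2 and is typically spread in broad domains over genes that a cell does not use. Neutrophil granules are made in waves: the azurophil granules, filled with Mpo and the serine proteases, arise in promyelocytes, and the specific granules, filled with lactoferrin and cathelicidin, arise later. Mpo transcription starts in the progenitors that are contained in a Lin- c-Kit+ fraction, whereas the specific granule genes are used mainly by more mature cells. The mark measures chromatin and not RNA, and an interval in a mixed population does not tell which of its cells carry the mark.

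The libraries held 11620 to 16879 intervals, covering 80.0 to 186 Mb, and 33.1% to 41.3% of all protein-coding windows overlapped an interval. RH VEH 1 covered the least (80.0 Mb), while RH VEH 2 covered 155 Mb, WT VEH 1 142 Mb and WT VEH 2 145 Mb. The number of reads behind each library is unknown, so a missing interval means that none was called, not that the mark was absent. As a check of the mark, the silent developmental genes Pax6, Gata4 and Hoxd11 were called in every library with 79.7% to 100% of their windows covered, and the housekeeping genes Actb and Gapdh in none. Of 5 progenitor marker genes, 2 to 4 were called per library, with Gata2 covered over 72.2% to 92.9% of its window and Kit over 0% to 9.16%. The mast cell and basophil genes Cpa3, Mcpt8 and Fcer1a had no interval in any library, as did 52.6% of all windows. Of 6 mature neutrophil genes, 1 or 2 were called per library.

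Start sites of 4 of the genes are shown because they span the range found here: Lpo was marked at its start site in 8 libraries, Mpo and Prtn3 in 3 each, and Ngp in none. Each sequence holds the 250 bases before and the 50 bases from the start site, 5′ to 3′ on the gene's own strand, from RefSeq on GRCm38.p6, with CG dinucleotides in capitals.
Mpo, chr11:87793534-87793833, plus strand: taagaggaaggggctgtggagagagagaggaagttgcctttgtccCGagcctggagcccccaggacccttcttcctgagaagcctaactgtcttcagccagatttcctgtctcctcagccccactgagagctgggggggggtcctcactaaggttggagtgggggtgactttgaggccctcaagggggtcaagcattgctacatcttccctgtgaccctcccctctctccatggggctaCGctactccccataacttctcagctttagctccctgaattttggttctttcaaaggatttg
Lpo, chr11:87826065-87826364, minus strand: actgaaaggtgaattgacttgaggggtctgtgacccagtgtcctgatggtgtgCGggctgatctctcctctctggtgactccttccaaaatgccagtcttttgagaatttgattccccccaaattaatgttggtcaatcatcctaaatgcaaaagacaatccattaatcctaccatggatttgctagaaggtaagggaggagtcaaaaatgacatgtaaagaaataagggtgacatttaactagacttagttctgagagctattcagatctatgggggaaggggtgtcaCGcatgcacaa
Prtn3, chr10:79879417-79879716, plus strand: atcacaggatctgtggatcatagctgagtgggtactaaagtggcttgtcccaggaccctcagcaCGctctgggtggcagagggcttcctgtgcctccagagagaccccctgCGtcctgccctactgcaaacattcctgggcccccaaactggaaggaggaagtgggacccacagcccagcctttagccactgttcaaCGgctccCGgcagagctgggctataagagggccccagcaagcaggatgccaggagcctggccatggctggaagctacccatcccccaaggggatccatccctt
Ngp, chr9:110419558-110419857, plus strand: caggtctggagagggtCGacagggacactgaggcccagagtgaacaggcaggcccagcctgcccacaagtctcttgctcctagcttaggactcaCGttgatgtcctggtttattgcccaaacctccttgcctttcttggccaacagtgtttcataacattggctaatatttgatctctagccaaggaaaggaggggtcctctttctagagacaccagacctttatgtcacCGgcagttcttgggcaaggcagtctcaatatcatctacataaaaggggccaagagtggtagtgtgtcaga

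All of these start sites were poor in CG, the dinucleotide whose clusters are known as the usual entry points of Polycomb complexes. The stretches of Mpo and Lpo held 2 CG each, that of Ngp 3 and that of Prtn3 4. Over all 10 genes the count ran from 2 to 8, with the highest at Ctsg, against a median of 13 over 17491 promoters of the same length. Genes whose windows were called in every library had a median of 18, and 25.4% of them had 8 or fewer, the class to which Lpo and Prtn3 belong. Genes called in no library had a median of 8.

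Letters that myeloid factors are known to bind were also searched, on both strands. TTNNGNAA, a loose form of the C/EBP site, was found in 4 of the 10 stretches, namely those of Lpo, Ltf, Ngp and S100a8, and in 37.8% of all promoters. GAGGAA, the core letters of a PU.1 site, was found in 6 of the 10 and in 27.5% of all promoters. TGTGGT, the RUNX letters, was found in 2 of the 10 and in 15.1% of all, and AACNG, the core of a MYB site, in 8 of the 10 and in 79.1%. These motifs do not contain one another, and a match is a run of letters, not a bound site.

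Of the 10 windows, 4 overlapped an interval in WT VEH 1 (36.8% of all protein-coding windows), 5 in WT VEH 2 (39.3%), 4 in WT MET 1 (40.3%), 5 in WT MET 2 (41.3%), 2 in RH VEH 1 (33.1%), 3 in RH VEH 2 (37.3%), 4 in RH MET 1 (39.6%) and 4 in RH MET 2 (37.9%). The fewest were thus in RH VEH 1, the library with the fewest windows called overall. Lpo and Prtn3 were called in every library, which 29.9% of all protein-coding windows were. Ctsg, Ltf and Ngp were called in no library, as were 52.6% of all windows. Camp and S100a8 were called in 1 library each, a class that held 4.11% of all windows. Mpo was called in 4 libraries, Epx in 6 and Elane in 3. Within the gene spans alone, 5 of the 10 genes had no interval in any library (Elane, Ctsg, Ltf, Camp and Ngp), against 60.7% of all genes, and 1 (Lpo) had one in every library, against 24.8%.

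**Figure D1:**
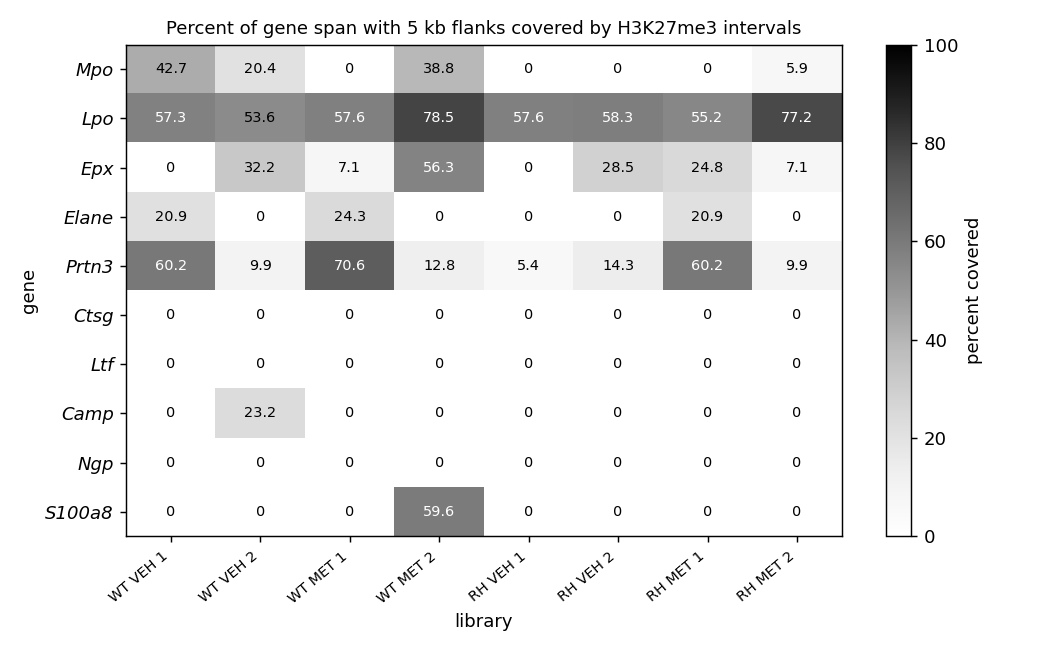
Percent of each gene window (rows, span with 5 kb flanks) covered by intervals in each library (columns). Darker cells are covered further, Lpo is covered in all 8 columns (53.6% to 78.5%), and Ctsg, Ltf and Ngp are at 0 throughout.

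Mpo, the haem enzyme that makes hypochlorous acid and is the most abundant protein of azurophil granules, lies at chr11:87793784-87804412 on the plus strand. Its window was covered over 42.7% in WT VEH 1, 20.4% in WT VEH 2, 0% in WT MET 1, 38.8% in WT MET 2, 0% in RH VEH 1, 0% in RH VEH 2, 0% in RH MET 1 and 5.88% in RH MET 2. The 3 libraries with more than 20% were all wild type, and the 4 mutant libraries together held only the low value of RH MET 2. That value came from the edge of a 25.0 kb interval over the neighbouring gene Lpo, which began 3.79 kb beyond the end of Mpo and did not reach the Mpo span. In WT MET 2 the Lpo interval likewise gave 1612 of the 8012 bp covered in the Mpo window.

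On the Mpo span itself, 51.0% was covered in WT VEH 1, 28.4% in WT VEH 2 and 47.2% in WT MET 2, and 0% in the other 5 libraries. In all 3 cases the interval lay over the start site. It ran from 3.38 kb upstream to 5.42 kb downstream of the start site in WT VEH 1 (chr11:87790401-87799200), from 1.18 kb upstream to 3.02 kb downstream in WT VEH 2 (chr11:87792601-87796800) and from 1.38 kb upstream to 5.02 kb downstream in WT MET 2 (chr11:87792401-87798800). The summit lay 1.29 kb upstream of the start site in WT VEH 1, and 1.00 kb and 1.79 kb downstream of it in WT VEH 2 and WT MET 2. The later part of the gene carried no interval in any library.

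The Mpo intervals were of middling strength. Each had a summit height of 15, a deposited score without a stated unit, which stood at the percentile 50.7 of all intervals in WT VEH 1, 50.7 in WT VEH 2 and 41.2 in WT MET 2. In the libraries without an interval on the span, the nearest one was 9.59 kb away in WT MET 1 and RH VEH 1, 9.39 kb in RH VEH 2 and RH MET 1 and 3.79 kb in RH MET 2, in each case the domain over Lpo.

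Under vehicle, Mpo was the 1 gene of the 10 whose window was called in both WT and neither RH library, as were 1.02% of all protein-coding windows, or 0.859% of genes by the span. Nothing is read from this, since it chose the gene. None of the 10 showed the opposite pattern, present in both vehicle libraries of the mutant and absent from those of the wild type (0.196% of all windows). RH VEH 1 and RH VEH 2 held 11620 and 13339 intervals with median summit heights of 12 and 14, against 12009 and 16259 intervals with a median height of 15 in both WT VEH libraries. The part that these differences play in the lack of an Mpo interval was not tested.

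In the metformin libraries, which had not been used to single Mpo out, WT MET 2 carried the interval at the start site and WT MET 1, RH MET 1 and RH MET 2 did not. The 2 wild-type libraries therefore disagreed, and Mpo did not separate the genotypes under metformin. None of the 10 genes was called in both WT MET and neither RH MET library (1.03% of all windows) or the reverse (0.361%). With 2 libraries against 2 the smallest exact p is 0.333, so no test of these groups can pass a threshold of 0.05. Of the 188 genes whose spans were called as Mpo's was under vehicle, 48 (25.5%), Mpo among them, were called in no RH MET library, 71 in 1 and 69 in both.

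The Mpo interval stood between domains that every library shared. On the side upstream of Mpo, a region of 13.6 kb over Tspoap1, which encodes a binding partner of a mitochondrial outer-membrane protein, was called in all 8 libraries (chr11:87756201-87769800), with summit heights of 45 in RH VEH 1, 50 in RH VEH 2, 55 in WT VEH 1, 57 in RH MET 2, 72 in WT VEH 2, 81 in WT MET 2, 83 in RH MET 1 and 84 in WT MET 1. In the 3 libraries with an interval at Mpo, this region stood at 55, 72 and 81 against 15 there. A second, short region within Tspoap1 (chr11:87777201-87781000) was called in RH MET 1 and RH MET 2 alone, with heights of 13 and 12. It began 16.6 kb upstream of the Mpo start site, and 0.69% of all 18556 merged regions were called in both RH MET and no other library. Mpo's own region was called in 3 WT libraries and no RH library, as were 1.08% of merged regions.

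**Figure D2:**
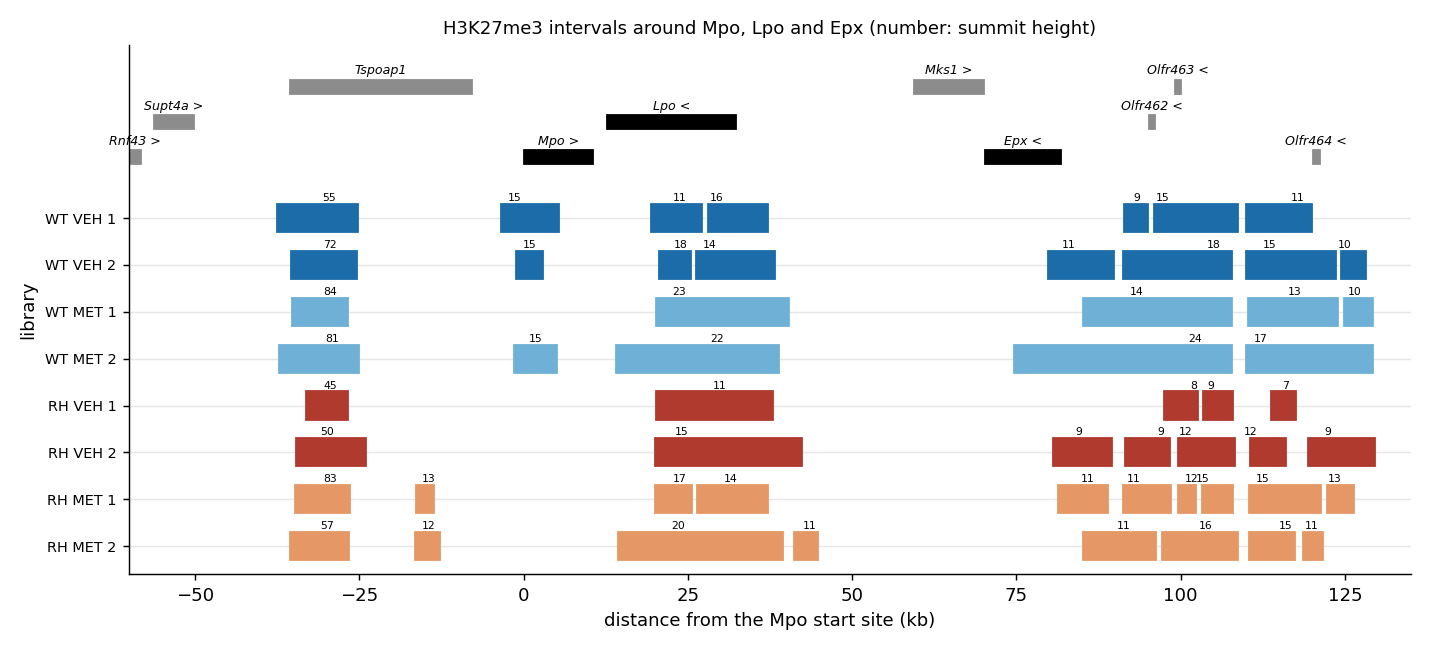
Intervals of the 8 libraries (rows) by distance from the Mpo start site in kb, with gene spans above (> plus strand, < minus strand) and the summit height over each interval. Blue bars are WT and red to orange bars RH, and the bars at 0 kb are present in WT VEH 1, WT VEH 2 and WT MET 2 alone.

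Lpo, the lactoperoxidase of milk, saliva and airway secretions and a close relative of Mpo, lies on the opposite strand 3′ of it (chr11:87806428-87826114, minus strand). Its window was covered over 57.3% in WT VEH 1, 53.6% in WT VEH 2, 57.6% in WT MET 1, 78.5% in WT MET 2, 57.6% in RH VEH 1, 58.3% in RH VEH 2, 55.2% in RH MET 1 and 77.2% in RH MET 2. Of the 8 libraries, 6 lay between 53.6% and 58.3%, and WT MET 2 and RH MET 2 stood apart at the top with intervals of 24.8 and 25.0 kb that ran further toward Mpo. The windows of Mpo and Lpo overlap, so these domains count for both. Intervals on Lpo had summit heights of 11 to 23 (median percentile 54.1 in their own libraries), and its start site was covered in all 8 libraries.

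Epx, the eosinophil peroxidase, is the third peroxidase gene of this stretch (chr11:87863997-87875536, minus strand). Its window was covered over 0% in WT VEH 1, 32.2% in WT VEH 2, 7.13% in WT MET 1, 56.3% in WT MET 2, 0% in RH VEH 1, 28.5% in RH VEH 2, 24.8% in RH MET 1 and 7.13% in RH MET 2. Cover occurred in both genotypes and both treatments. WT VEH 1 and RH VEH 1 had none, and the groups overlapped. These were the libraries with the fewest intervals (12009 and 11620). The other vehicle libraries, WT VEH 2 and RH VEH 2, had 32.2% and 28.5%. Its start site was covered in WT VEH 2, WT MET 2, RH VEH 2 and RH MET 1. The cover belonged to a merged region of 34.2 kb that continued over the olfactory receptor genes beyond Epx (chr11:87868401-87902600), held an interval in every library and reached into Epx to differing extents. The intervals in the Epx window had a median percentile of 21.5, against 54.1 for those of Lpo.

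Of the other genes within 200 kb of Mpo, the olfactory receptor genes, silent outside the nose, were the most widely marked. On the span alone, Olfr463 had an interval in 8 libraries, over 55.8% to 100% of it, Olfr462 in 7 and Olfr464 in 6. By window, each of these was called in 8. Rnf43, which encodes a ubiquitin ligase that removes Wnt receptors, had an interval on its span in 4 libraries, over at most 6.35% of it. The heat shock factor gene Hsf5 had one in 1 library, over 6.61%. By window, Rnf43 was called in 4 libraries and Hsf5 in 3. No interval lay in the spans of Supt4a, a transcription elongation factor gene, Mks1, a cilium gene, Mtmr4, a lipid phosphatase gene, or Dynll2, a dynein light chain gene. An interval reached the flanks of Dynll2 in 8 libraries and those of Mks1 in 1.

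Elane, neutrophil elastase, and Prtn3, proteinase 3, are serine proteases of azurophil granules that lie side by side on chromosome 10 (chr10:79886312-79888216 and chr10:79879667-79883174, both plus strand), and their windows overlap. The Prtn3 window was covered over 60.2% in WT VEH 1, 9.88% in WT VEH 2, 70.6% in WT MET 1, 12.8% in WT MET 2, 5.43% in RH VEH 1, 14.3% in RH VEH 2, 60.2% in RH MET 1 and 9.88% in RH MET 2. These values fell into 3 high libraries, WT VEH 1, WT MET 1 and RH MET 1, and 5 low ones. The 3 high libraries were all numbered replicate 1. RH VEH 1 and every library numbered 2 were low. What same-numbered libraries share is not stated, and this split was not tested.

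In the 5 low libraries the cover of Prtn3 was the edge of a domain over Plppr3, a gene of the neighbouring lipid phosphatase-related family, which overlapped the Prtn3 window by 734 to 1934 bp. This domain was called in all 8 libraries with summit heights of 16 to 39. In WT MET 1 this interval went on over the whole Prtn3 span (100% covered), in WT VEH 1 and RH MET 1 a separate interval covered the whole span, and the cover ended 2.11 kb before the Elane start site in WT MET 1 and 2.51 kb before it in WT VEH 1 and RH MET 1. The Elane window was accordingly covered over 20.9% in WT VEH 1, 24.3% in WT MET 1 and 20.9% in RH MET 1 and 0% in the other 5, and the Elane span over 0% in all 8. Cfd, the complement factor D gene that follows Elane, and Med16, a Mediator subunit gene, had no interval in their windows in any library. R3hdm4 had one in its window in all 8 libraries, over 22.1% to 32.8%.

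**Figure D3:**
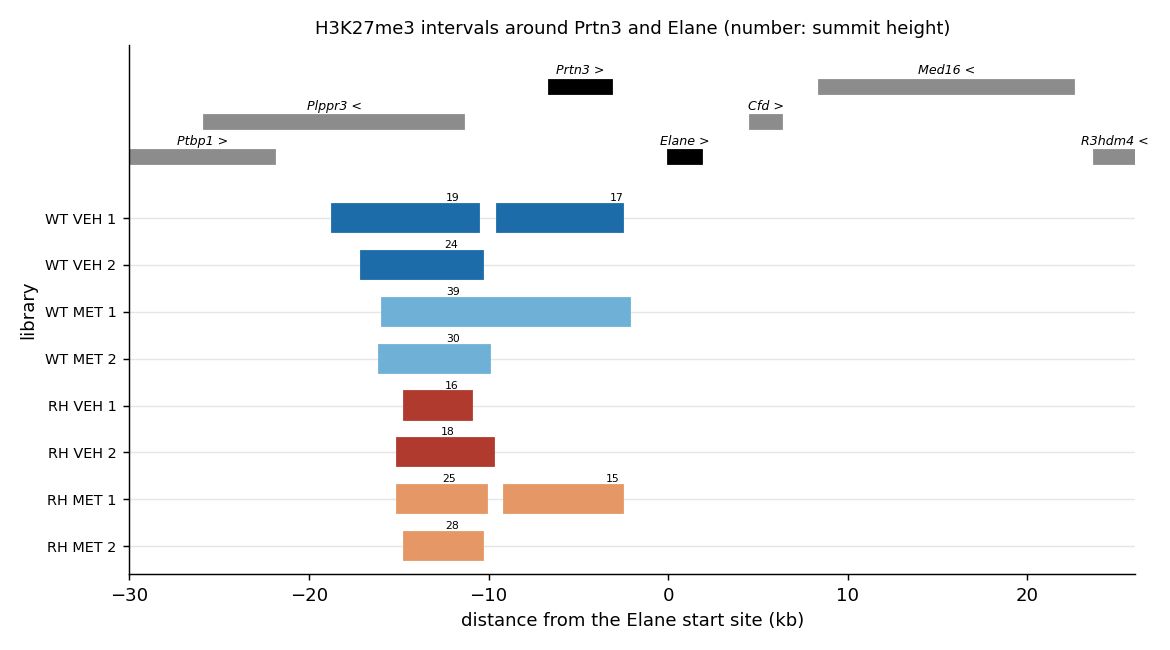
Intervals of the 8 libraries (rows) by distance from the Elane start site in kb, with gene spans above and the summit height over each interval. The domain at about -12 kb is present in every row, cover over Prtn3 in WT VEH 1, WT MET 1 and RH MET 1, and no bar reaches Elane.

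Ctsg, cathepsin G, the remaining serine protease of azurophil granules in the set (chr14:56099885-56102574, minus strand), had no interval in its window in any library. The nearest one lay 46.3 to 57.4 kb away in 7 libraries and 212 kb away in RH VEH 1. Among the azurophil genes of the set, Mpo, which its calls had chosen, and Prtn3 were marked at the start site in 3 libraries each. Elane and Ctsg had no interval on the span in any library, as did 60.7% of all genes. By window, Prtn3 was called in 8 libraries, Mpo in 4, Elane in 3 and Ctsg in 0. The libraries with a marked start site differed between Mpo and Prtn3: WT VEH 1 alone carried both.

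Of the 3 specific granule genes among the 10, Ltf and Ngp had no interval in any library, as did 52.6% of all windows, and Camp had 1 in a single library. Ltf, lactoferrin (chr9:111019292-111042766), had its nearest interval 61.3 to 72.3 kb away, and Ngp, the neutrophilic granule protein (chr9:110419808-110423012), 120 to 168 kb away. Camp, the cathelicidin antimicrobial peptide (chr9:109847377-109849456, minus strand), carried 1 interval of 2.8 kb in its upstream flank in WT VEH 2 (chr9:109850401-109853200; summit height 11), which covered 23.2% of the window and ended 0.945 kb before the gene. The other 7 libraries had 0%, with the nearest interval 20.0 to 28.2 kb away.

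S100a8, which encodes a subunit of the cytosolic calcium-binding protein calprotectin (chr3:90669071-90670034, plus strand), carried 1 interval of 9.4 kb in WT MET 2 (chr3:90661201-90670600). It covered 59.6% of the window and 100% of the span in that library, and the other 7 libraries had 0%. The interval was weak, with a summit height of 11 at the percentile 9.67 of WT MET 2, the library with the widest total cover. S100a9, which encodes the other calprotectin subunit, was covered over 0% in WT VEH 1, 50.2% in WT VEH 2, 42.6% in WT MET 1, 97.2% in WT MET 2, 0% in RH VEH 1, 47.1% in RH VEH 2, 0% in RH MET 1 and 71.2% in RH MET 2. S100a9 was thus called in 5 libraries against 1 for S100a8, with summit heights of at most 13.

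**Figure D4:**
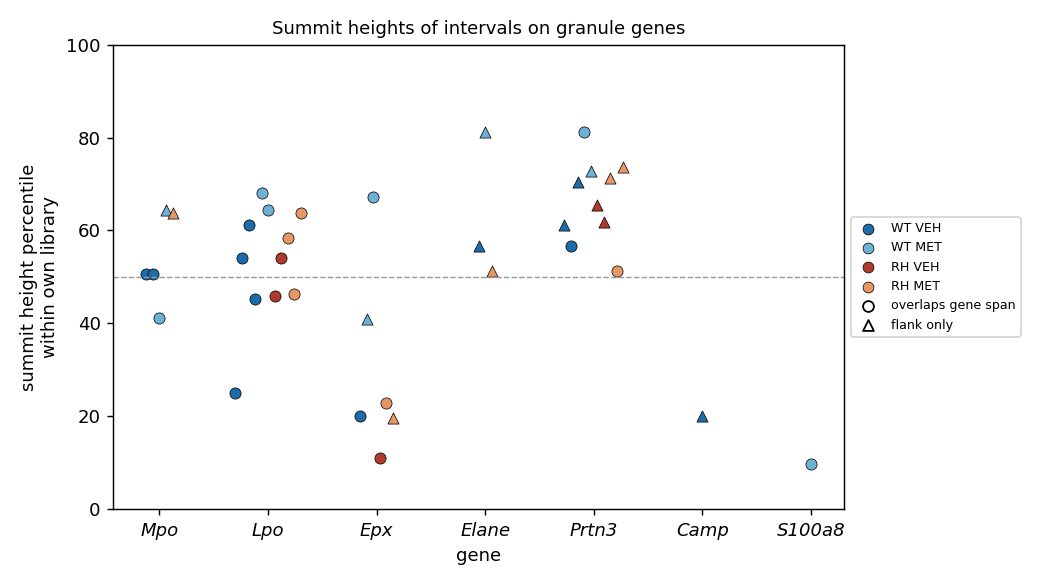
Summit height of each interval in a granule gene window as a percentile among all intervals of its own library (y axis), by gene (x axis) and coloured by group, with triangles for intervals that touch only a flank. The intervals on the Mpo span lie at 41.2 to 50.7, and those of Camp and S100a8 at 20.1 and 9.67.

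Metformin was compared with vehicle over all genes, 4 libraries against 4, by an exact two-sided permutation test of the percent of window covered, adjusted by Benjamini-Hochberg over the 10376 genes called in at least 1 library. No member passed. Mpo was covered over 15.8% ± 20.3 under vehicle and 11.2% ± 18.6 under metformin (SD, n = 4 each; exact p = 0.829, adjusted p = 1). The 4 vehicle libraries of this test are those whose calls had chosen Mpo. Nothing is therefore read from the comparison of Mpo between metformin and vehicle, by cover or by calls. Lpo was covered over 56.7% ± 2.12 under vehicle and 67.2% ± 12.4 under metformin (exact p = 0.257, adjusted p = 1). Epx had 15.2% ± 17.6 and 23.8% ± 23.2 (exact p = 0.571, adjusted p = 1), Elane 5.23% ± 10.5 and 11.3% ± 13.1 (exact p = 0.714, adjusted p = 1), and Prtn3 22.5% ± 25.4 and 38.4% ± 31.5 (exact p = 0.429, adjusted p = 1). Camp and S100a8, marked in 1 library each, had an exact p of 1.

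Ctsg, Ltf and Ngp, without an interval in any library, could not be tested. The median difference between metformin and vehicle over all genes tested was 0.791 percentage points. Of all 10376 genes, 0 passed after adjustment and 124 had an unadjusted exact p under 0.05, of which 108 (1.04%) were higher and 16 (0.154%) lower under metformin, and no member was among them, while the adjusted test called 0% of them. The smallest p that 4 against 4 allows is 0.0286, which is too large to pass the adjustment at these numbers. By calls, no member separated metformin from vehicle in either genotype: in the wild type, 0 of 10 were present in both metformin libraries and absent under vehicle (1.04% of all windows) or the reverse (0.178%), and in the mutant 0 of 10 were (1.2%) or the reverse (0.206%).

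The wider granule program was then read from fixed lists. Of 5 further azurophil genes, Ctsc, which encodes the protease that activates the granule serine proteases, Serpinb1a, which encodes their inhibitor, and Srgn, which encodes the proteoglycan that packs them, had no interval in any library. The same held for 52.6% of all windows. Prss57, a further granule serine protease, was called in all 8 over 22.1% to 35.0% of its window. Bpi, the bactericidal protein that binds endotoxin, was called in the same 3 libraries as the Mpo span: over 10.4% of its window in WT VEH 1, 6.03% in WT VEH 2 and 6.03% in WT MET 2. These intervals were short and low, 3.8, 2.2 and 2.2 kb wide with summit heights of 13, 12 and 13, and the one in WT MET 2 lay at another place in the gene (chr2:158263001-158265200) than that in WT VEH 1 (chr2:158257801-158261600). In all, 13 genes (0.0594% of protein-coding genes) had their span called in just these 3 libraries, and 0.256% in any 3 of the 4 WT libraries and no RH library.

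Among 11 specific granule genes, 0 to 3 were called per library, where 33.1% to 41.3% of all protein-coding windows were, and 7 in none, where 52.6% of all windows were. These 7 were Ltf, Ngp, Chil3, Mmp8, Cybb, Cyba and Olfm4. Pglyrp1, a peptidoglycan-binding protein gene, had an interval in 1 of its flanks in 7 libraries, with heights of 15 to 42, and none on its span. Lcn2, which encodes a carrier that withholds iron from bacteria, was covered over 87.0% of its window in WT VEH 1 and 0% in the other 7. Hp, the haptoglobin gene, was covered over 38.2% in WT VEH 2 and WT MET 2 and 0% elsewhere.

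Of 6 genes of gelatinase granules and the cell surface, 2 to 3 were called per library, against the same share of all windows. Mmp9, gelatinase B, was covered over 95.3% to 100% of its window in all 8 libraries, and Mmp25, a membrane-anchored metalloprotease, over 30.7% to 65.9%. Itgam and Itgb2, which encode the chains of the Mac-1 integrin, had an interval at a window edge in 1 library each, covering 1.21% and 1.04%, and the formyl peptide receptor genes Fpr1 and Fpr2 had none. Of 6 eosinophil granule genes, Epx alone was called, and 5 were called in no library, as were 52.6% of all windows.

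Of 8 regulators of granulocyte formation, 4 to 7 were called per library, where 33.1% to 41.3% of all protein-coding windows were. Cebpe, a factor that the specific granule genes require, was covered over 62.6% to 100% of its window in all 8 libraries, Gfi1, a repressor needed for neutrophil formation, over 65.8% to 100%, and Cebpa, a factor of early granulocyte commitment, over 44.3% to 88.1%. Irf8, which favours monocytes over granulocytes, was covered over 19.1% to 42.2% in all 8. Cebpb, the factor of emergency granulopoiesis, was called in 6 libraries (0% to 78.9%), and Myb, a progenitor factor, in WT VEH 1 alone (13.5%). Spi1, which encodes PU.1, was called in 6 libraries over 0% to 27.7% of its window, with its span called in 1, and Runx1 in WT MET 2 alone over 1.76%, with no interval on its span. Whether the regulators differ from the granule genes was not tested.

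**Figure D5:**
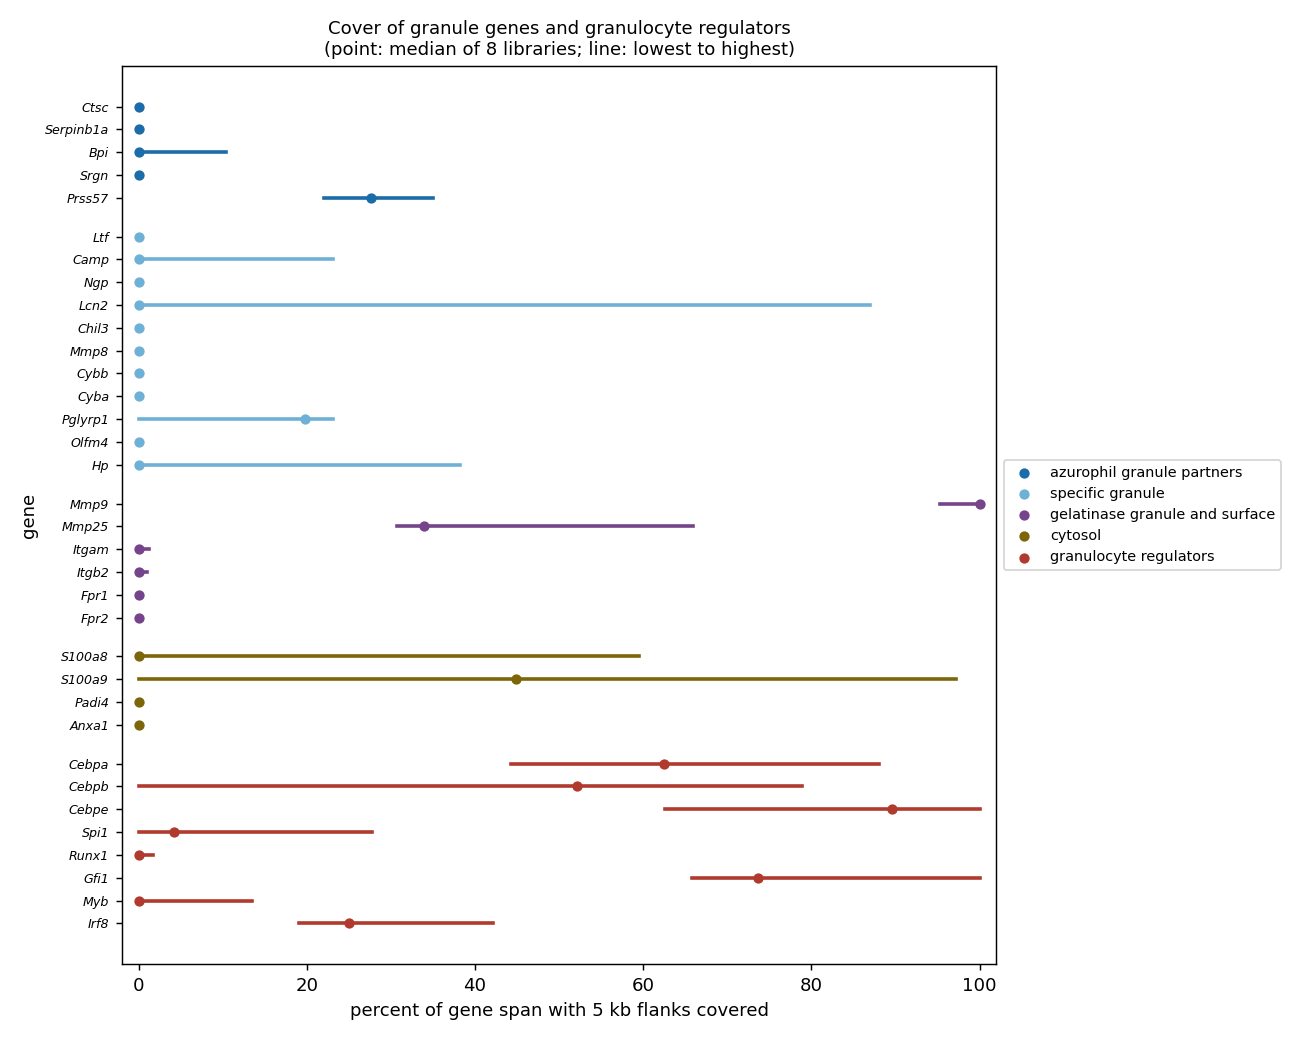
Percent of each gene window covered (x axis) for the fixed granule lists and the granulocyte regulators (rows), with a point at the median of 8 libraries and a line from the lowest to the highest library. The median of most granule genes is 0, as is that of the regulators Runx1 and Myb. The granule genes Mmp9, Mmp25 and Prss57 and the regulators Cebpe, Gfi1, Cebpa and Irf8 are covered in every library.

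The genes whose cover over the 8 libraries was most like that of Mpo were taken as those with the highest Pearson correlation among 10233 candidates. They were Slco4a1, an organic anion transporter gene (r = 0.995), Arpc4, a subunit gene of the Arp2/3 actin complex (r = 0.978), Ism1, a secreted protein gene (r = 0.972), Stpg1 (r = 0.968) and Nyx, a gene of the retina (r = 0.966). The correlations are a description over 8 libraries that share their total cover. The first 4 were called in all 8 libraries and differed in how far the cover ran. Slco4a1, for example, was covered over 32.1% in WT VEH 1, 21.1% in WT VEH 2, 13.5% in WT MET 1, 30.9% in WT MET 2 and 11.9% to 15.6% in the RH libraries. Nyx was called in the 4 WT libraries (4.31% to 41.2%) and in no RH library. These genes were picked for likeness to Mpo, itself chosen by its vehicle calls. Their split between genotypes is therefore no separate result, and the share of all genes called as Nyx was not computed.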

How the data were processed

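H3K27me3 was mapped by chromatin immunoprecipitation sequencing in 8 libraries, and 1 input library was not used. Per the file headers, the authors deposited intervals and summits of every library separately, on mm10, plus 1 set of merged regions. The summit height is a score that the authors deposited as a whole number, its unit is not stated, and it may not be comparable between libraries. It was used to rank or filter intervals, and heights printed side by side are a description. Interval edges fall on multiples of 200 bp. Per the submitters' processing notes, bcl2fastq 2.20, BWA 0.7.12 and mm10 were used. How intervals were called and filtered, and whether depth or the input was taken into account, is not given in the sources used here, and read numbers are unknown.

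Intervals overlapping by at least 1 bp were merged into 18556 regions, of which 18556 equalled the deposited ones. Gene spans (GRCm38.p6, the assembly of mm10) came from a RefSeq table with 21883 protein-coding genes, and strands and start sites from a RefSeq promoter table. A gene was called where an interval overlapped its span with 5 kb flanks by at least 1 bp. Treatment was tested by exact permutation over 70 assignments of 4 libraries against 4, with the code checked on simulated data. Calculations used Python 3.11.15, numpy 2.4.6 and pandas 2.3.3. Alternatives were no flank, 20 kb flanks, a summit height of at least 15, the 11620 highest intervals of each library, at least 10% of the window covered, intervals within 1000 bp joined, each library left out, and exchange of treatment within pairs of the same genotype and replicate number. The members, lists and tests were chosen with earlier results of these data known. Named were the members, all protein-coding genes within 200 kb of Mpo, up to 6 called genes per list in alphabetical order and the 5 genes most correlated with Mpo. Since no label ties replicates to separate mice, the p-values reflect the spread between libraries alone, which may be technical.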

Additional observations from a re-analysis of the deposited data

How the results depend on the processing

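The calls depend on how much sequence around each gene is read. Read numbers are unknown, so what depth limits could not be assessed. On average 3.88 of the 10 genes were called per library. This was 2.38 on the gene span alone, 6.0 with 20 kb flanks, 2.88 with a summit height of at least 15 and 2.5 where the summit had to lie inside the window, a setting chosen after seeing the data. The number called in every library was 2, and 1 on the span alone, with the minimum height, with at least 10% of the window covered and with the summit inside, but 5 with 20 kb flanks. The number called in none was 3, and 5 on the span alone, with the minimum height and with an equal number of intervals.

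Under vehicle 1 gene, Mpo, was called in both WT libraries and neither RH library, which chose it. Its height of 15 just met the minimum. With 20 kb flanks 0 genes were so called, because the wider window reaches the Lpo domain, and the difference in Mpo cover between WT VEH and RH VEH went from 31.5 to 11.5 percentage points. With an equal number of intervals 1 gene, Epx, was called in both WT MET and neither RH MET library, where 0 were otherwise. With the minimum height Epx was called in WT MET 2 alone. Apart from the gene span alone, the share of all genes was not computed under the alternatives. Nothing is therefore read from the changes in these counts of genes. With a library left out, its group is called on 1 library, so such a pattern is met more easily. Leaving out each library in turn gave 1 to 2 genes for WT VEH against RH VEH (2 without WT VEH 1 or WT VEH 2), 0 to 1 for WT MET against RH MET (1 without WT MET 1), 3.71 to 4.14 genes per library, 3 to 4 in none and 20.4 to 42.7 points of Mpo cover.

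The treatment difference of Mpo, -4.58 points, turned to 6.12 with 20 kb flanks and 4.39 without WT VEH 1 (range -13.8 to 4.39), and that of Epx, 8.67, to -2.16 without WT MET 2 (range -2.16 to 14.3). That of Prtn3, 15.9, ran from 5.18 without WT MET 1 to 28.5 without WT VEH 1 and was 2.76 with 20 kb flanks and 25.0 on the span. That of Elane, 6.07, ran from 1.74 without WT MET 1 to 11.3 without WT VEH 1 and was 2.86 with 20 kb flanks. That of Lpo, 10.4, was 31.7 with the minimum height, 15.7 on the span, 3.94 with 20 kb flanks and 6.65 without WT MET 2. The adjusted p was 1 for each of these genes under each alternative run. For Mpo nothing is read from these differences or their p, since its vehicle calls had chosen the gene. Genes with an unadjusted exact p under 0.05 numbered 124, 193 with the minimum height, 105 to 203 with a library left out, and 0 with the replicate block, which allows no p below 0.125. No label says what same-numbered libraries share beyond the number. Correlations of their deviations ran from -0.0206 to 0.227, and whether they share a batch was not tested. In any fit, 0 genes passed the adjustment.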

Other observations

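Relatives of Mpo outside its own stretch of chromosome 11 were marked to differing extents. Of 9 genes of the haem peroxidase family, 5 to 7 were called per library, where 33.1% to 41.3% of all protein-coding windows were. Duox2 and Duox1, which encode hydrogen peroxide-making oxidases of the thyroid and airway, were covered over 45.9% to 100% and 25.3% to 37.8% of their windows in all 8 libraries. Ptgs1, the cyclooxygenase gene of platelets, was covered over 28.3% to 43.3% in all 8.

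Ctsg lies between the mast cell protease genes and the granzyme genes of a cluster on chromosome 14, which was marked in patches away from Ctsg. Of its 15 genes, 0 to 4 were called per library and 10 in none, where 33.1% to 41.3% of all protein-coding windows were called per library and 52.6% in none. The granzyme genes Gzmn (0% to 71.3%) and Gzmg (0% to 76.8%) were called in the same 6 libraries, all 4 WT libraries, RH VEH 2 and RH MET 2. The windows of Gzmn and Gzmg overlap, and in each of these libraries a shared interval counts for both. Mcpt2 was called in 5 libraries over at most 20.1%, Cma2 in 4 over at most 13.9% and Gzmc in RH MET 2 alone over 17.8%. RH VEH 1, the library with the least total cover, had no interval in the cluster. Of 13 genes of the S100 cluster on chromosome 3, 10 had no interval in any library, as did 52.6% of all windows, and S100a7a, a relative of psoriasin, was called in WT MET 1, WT MET 2 and RH VEH 1 over at most 50.2% of its window.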
